A study of Mus musculus and blank sample with 91 samples.

Results

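Eubacteriaceae, a family of anaerobic gut bacteria in the class Clostridia, comprised 35 of the 2295 amplicon sequence variants (ASVs, the distinct reads kept after error correction) in the count table. They were chosen by their family name in the deposited taxonomy, which placed all 35 in 1 genus, Eubacterium, and 1 species, Eubacterium coprostanoligenes. This species is named for its ability to reduce cholesterol to coprostanol, a sterol that the host absorbs poorly and loses in feces. Bacteria called Eubacterium in a broad sense ferment sugars or lactate to short-chain fatty acids. The sequenced gene, 16S rRNA, is the standard marker for naming bacteria, and a name taken from it does not show that a strain reduces cholesterol.

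Feces of female C57BL/6 mice (C57BL/6J at purchase, 8 weeks old), were sequenced for the V3 and V4 regions of 16S rRNA to follow the gut microbiota through experimental autoimmune encephalomyelitis (EAE), a model of multiple sclerosis. EAE mice were immunized with a myelin oligodendrocyte glycoprotein (MOG) peptide in Complete Freund's Adjuvant (CFA) and received pertussis toxin. CFA mice received the adjuvant alone, and naïve mice were left untreated. Feces were collected on days -2, 8, 14, 19 and 29, counted from immunization (days post immunization, dpi), which for EAE mice meant before immunization, before symptoms, early onset, peak and a late stage of disease. Each of the 15 groups held 6 mice, except EAE at 14 dpi and CFA at 29 dpi with 5 each. Mice shared cages and treatment was given by cage. The labels do not name the cages, so cage and treatment cannot be told apart. EAE mice carry other numbers from 14 dpi on than at -2 and 8 dpi, so the labels do not show whether they were the same animals.

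Totals of the 88 samples used ranged from 9202 to 102437 counts with a median of 64586. The sample of EAE mouse 555 at 8 dpi had the lowest total and only 4 ASVs of any family, and those of EAE mice 551 at 8 dpi and 595 at 19 dpi had 22 and 25 ASVs. That of EAE mouse 589 at 14 dpi was also low, with 17326 counts and 37 ASVs. Counts give shares of a sample and not amounts of bacteria, so more Eubacteriaceae and less of other bacteria cannot be told apart.

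Eubacteriaceae took 51024 counts, 0.909% of all, and had counts in 75 of 88 samples. With primers removed (34 of the 35 ASVs held both), the ASVs fell into 4 distinct sequences. Sequence A, 403 nt long, comprised 20 ASVs and 59.7% of the family's counts. Sequence B, also 403 nt long, comprised 13 ASVs and 40.3%. The ASVs within A or within B differed only at ambiguous primer positions. The other 2 sequences had 3 and 2 counts in 1 EAE sample each and were not tested. Sequences A and B differed by 7 substitutions and by no insertion or deletion, which is 98.3% identity. These substitutions lay between positions 22 and 266, counted from the first base after the forward primer. The nearest sequence outside the family belonged to Candidatus_Soleaferrea/Massilioclostridium in Ruminococcaceae and was 92.8% identical to A and 92.6% to B. A and B were thus nearer to each other than to any sequence of another family in the table. Whether they came from different strains was not tested.

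The primer variants were unevenly spread over samples. A sample with sequence A held a median of 1 of its 20 variants (range 1 to 5), and a sample with B a median of 2 of 13 (range 1 to 6). The most widespread ASV of the family was found in 8 samples. The lowest total of the family above 0 in a sample was 71 counts. Over all families, 5.88% of ASV values above 0 were lower than 71, so low values were rare throughout the table. A value of 0 here means that no ASV was listed, and no upper limit is given for it.

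Whether Eubacteriaceae differed between EAE, CFA and naïve mice was asked at each day. As a percent of counts, the family was higher in EAE mice than in both other treatments at 14 dpi, the onset of disease, while edgeR's test on its counts passed for neither comparison. On that day it averaged 3.08% ± 1.36 (SD, n = 5) of counts in EAE mice. The naïve mean was 0.578% ± 0.385 and the CFA mean was 1.05% ± 0.768 (SD, n = 6 each). The EAE mean was 0.764% ± 0.479 before immunization and 3.61% ± 4.45 at 8 dpi (SD, n = 6 each), or 1.84% ± 1.12 at 8 dpi without mouse 555 (SD, n = 5), which is below the mean of 14 dpi. It was 1.44% ± 0.852 on day 19 and 0.595% ± 0.632 on day 29 (SD, n = 6 each). These are percents of all counts of a sample.

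**Figure D1:**
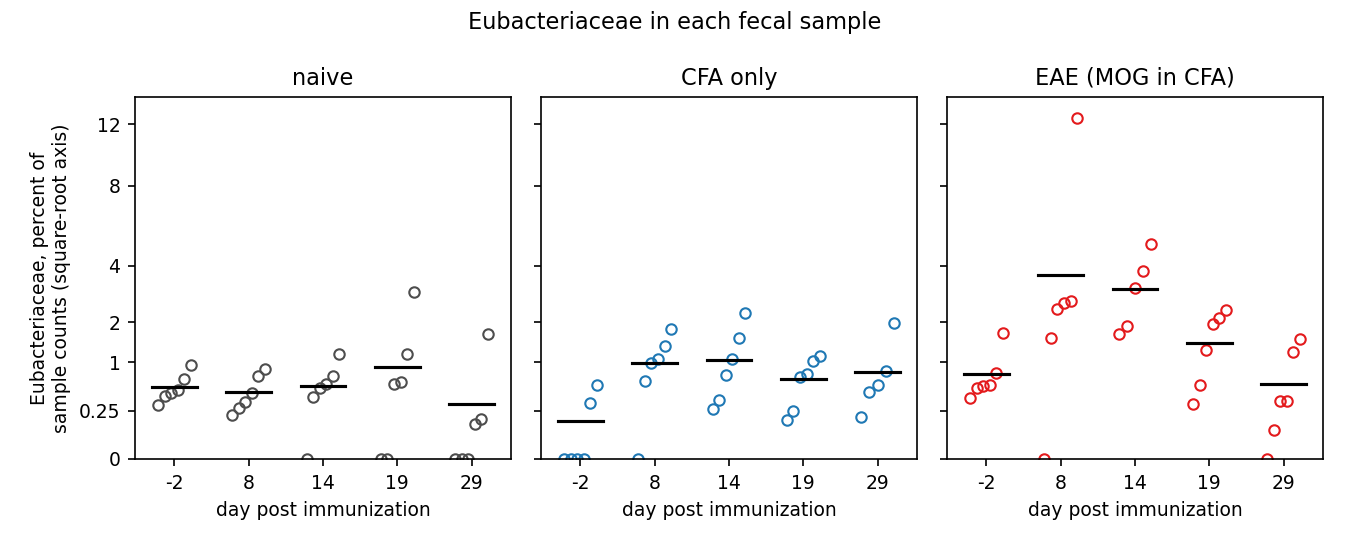
Eubacteriaceae as percent of each sample's counts (vertical axis, square-root scale) by day post immunization (horizontal axis) for naïve, CFA and EAE mice. Circles are samples and black lines are group means. All 5 EAE samples at 14 dpi lay between 1.67% and 4.95%, and the highest naïve sample of that day was at 1.17%.

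At 14 dpi the EAE mice 588, 589, 591, 593 and 595 had 1.67%, 4.95%, 1.89%, 3.79% and 3.12%. The highest, mouse 589, had the lowest total of the group, 17326 counts with 37 ASVs. Mice 591 and 593 had a clinical score of 0 on that day. Naïve mice of that day ranged from 0% to 1.17% with a median of 0.568%, and CFA mice from 0.272% to 2.29% with a median of 0.906%. All 5 EAE values were above all 6 naïve values, and they overlapped the CFA values through CFA mouse 544, the highest of its group. EAE exceeded naïve mice by 2.51 percentage points on average (two-sided exact permutation test, p = 0.00216, with adjusted p = 0.00830 over 23 families). No smaller p can be reached with groups of 5 and 6. EAE exceeded CFA mice by 2.03 points (p = 0.0130 and adjusted p = 0.0427 in an exact permutation test). Over all families and the 15 comparisons, 10.4% of such tests passed the threshold of 0.05, and 2 of 15 did for Eubacteriaceae. The difference from naïve mice passed with each of the 11 samples left out in turn. The difference from CFA mice lay between 1.57 and 2.39 points in such settings and passed in 3 of 11, those without EAE mouse 588, EAE mouse 591 or CFA mouse 544, with adjusted p from 0.0228 to 0.0913 by exact permutation.

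Lactobacillaceae, lactic acid bacteria that took much of the counts in the other mice, had a mean of 1.14% in EAE mice at 14 dpi, 30.7% in naïve mice and 25.7% in CFA mice. As a percent of counts outside Lactobacillaceae, Eubacteriaceae averaged 3.12% in EAE, 0.839% in naïve and 1.42% in CFA mice at 14 dpi. On this scale the difference from naïve mice was 2.28 points (exact permutation test, adjusted p = 0.00952) and that from CFA mice was 1.70 points, which did not pass (adjusted p = 0.106).

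At 8 dpi the EAE mice 550, 551, 553, 555, 556 and 557 had 2.67%, 0%, 2.40%, 12.5%, 2.59% and 1.56%. Mouse 555 was the highest of all samples and is the one with 9202 counts and 4 ASVs. Mouse 551, with 17439 counts, had none. The other 4 mice were above every naïve mouse of that day, whose range was 0.208% to 0.862% with a median of 0.410%. CFA mice ranged from 0% to 1.82% with a median of 1.02%, and overlapped mouse 557. The mean difference from naïve mice of 3.13 points did not pass (p = 0.0173 and adjusted p = 0.166 by exact permutation), nor did the 1.36 points without mouse 555 (adjusted p = 0.162). It passed only without mouse 551, where it was 3.85 points (exact permutation test, adjusted p = 0.0498). The difference from CFA mice was 2.63 points, and 0.864 points without mouse 555 (exact permutation test, adjusted p = 0.249 and 0.380).

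By 19 dpi the EAE values ranged from 0.324% to 2.38% with a median of 1.61%, against 0% to 2.99% in naïve mice and 0.167% to 1.14% in CFA mice. At 29 dpi they ranged from 0% to 1.54% with a median of 0.359%, against 0% to 1.66% in naïve and 0.191% to 1.99% in CFA mice. The groups overlapped at both days. The differences of EAE from naïve mice were 0.537 and 0.268 points at 19 and 29 dpi, and those from CFA mice were 0.760 and -0.222 points (exact permutation tests, adjusted p from 0.236 to 0.992). CFA mice exceeded naïve mice at 29 dpi by 0.490 points (adjusted p = 0.741 by exact permutation), or by 0.757 points without naïve mouse 563, where the difference passed (adjusted p = 0.0456).

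Before any treatment, the groups were already uneven in the samples taken. At -2 dpi all 6 EAE and all 6 naïve mice had counts of the family, but only 2 of 6 CFA mice did, mouse 543 with 0.334% and mouse 544 with 0.581%. The other 4 CFA mice were at 0%. EAE mice ranged from 0.396% to 1.71% and naïve mice from 0.309% to 0.951%. The CFA mean of 0.152% was 0.612 points below EAE (p = 0.0108 and adjusted p = 0.249 by exact permutation) and 0.407 points below naïve mice (p = 0.0216 and adjusted p = 0.166), neither of which passed.

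After immunization the family was present in 5 of 6 CFA mice at 8 dpi, in 6 of 6 on days 14 and 19 and in 5 of 5 on day 29, with means of 0.979%, 1.05%, 0.680% and 0.817%. In naïve mice it was present in 6, 6, 5, 4 and 3 of 6 mice on the 5 days in order, with means of 0.560%, 0.483%, 0.578%, 0.903% and 0.327%. In EAE mice it was present in 6 of 6, 5 of 6, 5 of 5, 6 of 6 and 5 of 6. None of the 15 comparisons of presence between treatments passed (two-sided Fisher's exact tests, lowest p = 0.0606, lowest adjusted p = 0.455), and 0 had an unadjusted p under 0.05.

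Whether the family changed from its level before immunization was compared within each treatment. In EAE mice it rose from -2 to 14 dpi by 2.32 percentage points (p = 0.00433 and adjusted p = 0.0199 in an unpaired exact permutation test). At 14 dpi 4 of the 5 EAE values were above the highest at -2 dpi, the 1.71% of mouse 556, and mouse 588 was just below it at 1.67%. This test passed in 6 of 11 settings with a sample left out, with differences from 1.85 to 2.67 points and adjusted p from 0.0219 to 0.0730. It passed without any single sample of 14 dpi and without mouse 556 at -2 dpi, and did not pass without any other sample of -2 dpi. Subject numbers from the deposited sample information were also used to pair mice, as a replicate block. The difference was then 2.51 points in 5 mice (paired exact permutation test, p = 0.0625 and adjusted p = 0.288). No smaller p can be reached with 5 pairs, so this test could not pass. Over all families, 3.26% of the tests against -2 dpi passed, and 1 of 12 did for Eubacteriaceae. Most of these comparisons were paired. A paired test over 6 mice could pass only if most of the 23 families reached its lowest p, and over 5 mice none could. The share is thus no background for the unpaired test at 14 dpi.

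At 8, 19 and 29 dpi the EAE differences from -2 dpi were 2.85, 0.676 and -0.169 points and did not pass (exact permutation tests, adjusted p from 0.391 to 0.826). The test at 8 dpi was paired over 6 mice, so it could pass only if most families reached its lowest p.

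In CFA mice the mean percent was higher than at -2 dpi by 0.826, 0.899, 0.528 and 0.634 points on the later days, the last over 5 mice. These paired differences did not pass after adjustment (exact permutation tests, adjusted p from 0.144 to 0.479), and 6 pairs allow no p under 0.0312. Unpaired, the difference at 14 dpi passed narrowly (exact permutation test, adjusted p = 0.0498). In naïve mice the differences were -0.0768, 0.0181, 0.343 and -0.233 points, and none of the paired tests passed (exact permutation tests, adjusted p = 1.00 at each day).

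Days of a mouse are not independent, so each mouse was also given its mean over 14, 19 and 29 dpi. The means of 2 mice covered only 2 days. EAE mouse 594 lacked 14 dpi, the day of the highest EAE mean of these days, and CFA mouse 548 lacked 29 dpi. Mouse 594 had the lowest EAE mean. EAE mice then averaged 1.59% ± 0.708, CFA mice 0.836% ± 0.496 and naïve mice 0.602% ± 0.605 (SD, n = 6 each). EAE mice ranged from 0.932% to 2.71%, CFA mice from 0.491% to 1.77% and naïve mice from 0% to 1.75%, so the groups overlapped. EAE was above naïve by 0.984 points (p = 0.0260 and adjusted p = 0.0647 by exact permutation) and above CFA by 0.750 points (p = 0.0671 and adjusted p = 0.140), and neither passed. For this measure 29.0% of the tests over families passed, and 0 of 3 did for Eubacteriaceae.

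Tests on the counts gave a different result from those on percents. In edgeR's quasi-likelihood test on family counts, with all 15 groups in a single fit, Eubacteriaceae passed in 0 of 15 comparisons between treatments, where 20.9% of tests over families passed. It passed in 0 of 12 comparisons with -2 dpi (3.99% over families) and in 0 of 12 comparisons of that change between treatments (7.25% over families). No unadjusted p was under 0.05 in any of these 39 tests, and DESeq2 called none of them. At 14 dpi the log2 fold change of EAE over naïve mice was 2.04 ± 1.59 (SE, edgeR adjusted p = 0.385) and of EAE over CFA mice 1.45 ± 1.56 (SE, edgeR adjusted p = 0.549). Standard errors between treatments were 1.48 to 1.59 log2 units for Eubacteriaceae, against 0.461 to 0.492 for Ruminococcaceae, which had counts in every sample. The change since -2 dpi differed most between CFA and naïve mice at 29 dpi, by 3.78 ± 2.20 log2 units (SE, edgeR adjusted p = 0.294).

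**Figure D2:**
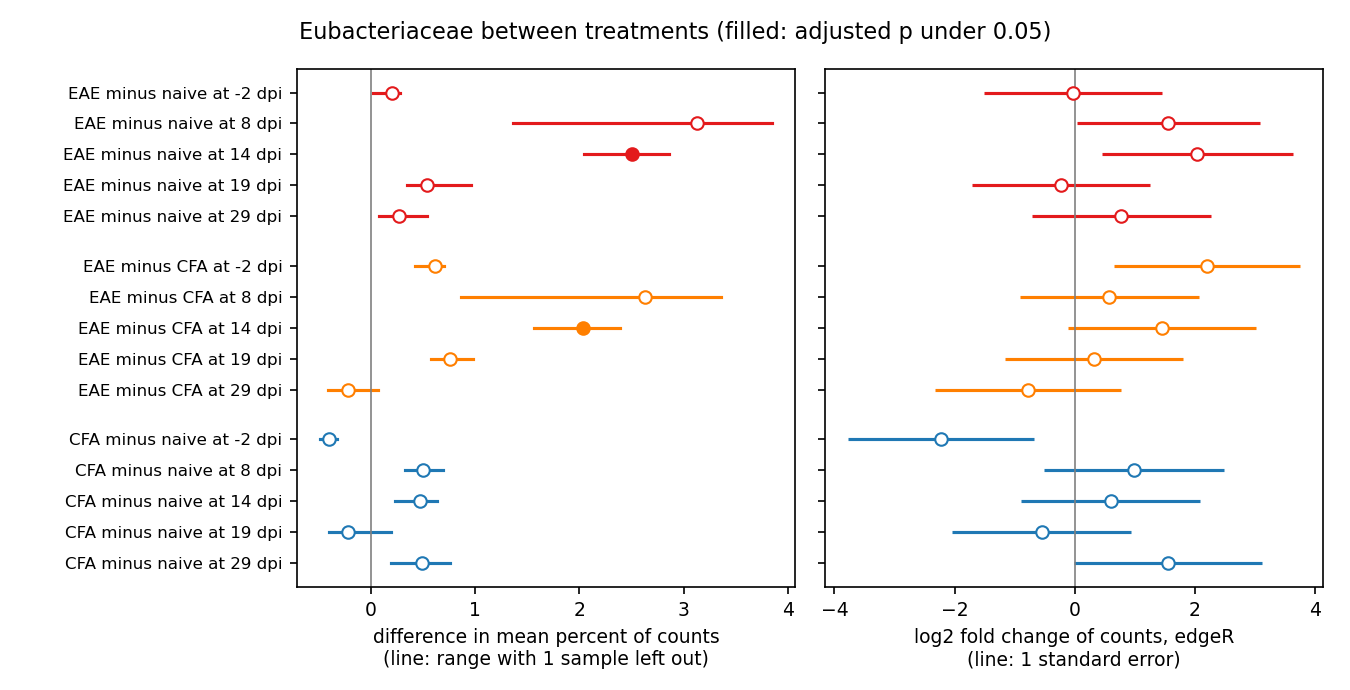
Eubacteriaceae between treatments in 15 comparisons. Left, difference in mean percent of counts (percentage points), with lines for the range when 1 sample was left out. Right, log2 fold change of counts from edgeR with 1 standard error. Filled points passed an adjusted p of 0.05, which were EAE minus naïve and EAE minus CFA at 14 dpi on the left and none on the right.

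Most samples held a single sequence of the family. Sequence A was in 59 samples and B in 21, of which only 5 held both. B was found in 17 of 29 EAE samples, 4 of 30 naïve samples and 0 of 29 CFA samples. Sequence A was found in all 24 CFA samples that had counts of the family. In EAE mice from 8 to 19 dpi, B made up 86.9% of the family's counts.

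**Figure D3:**
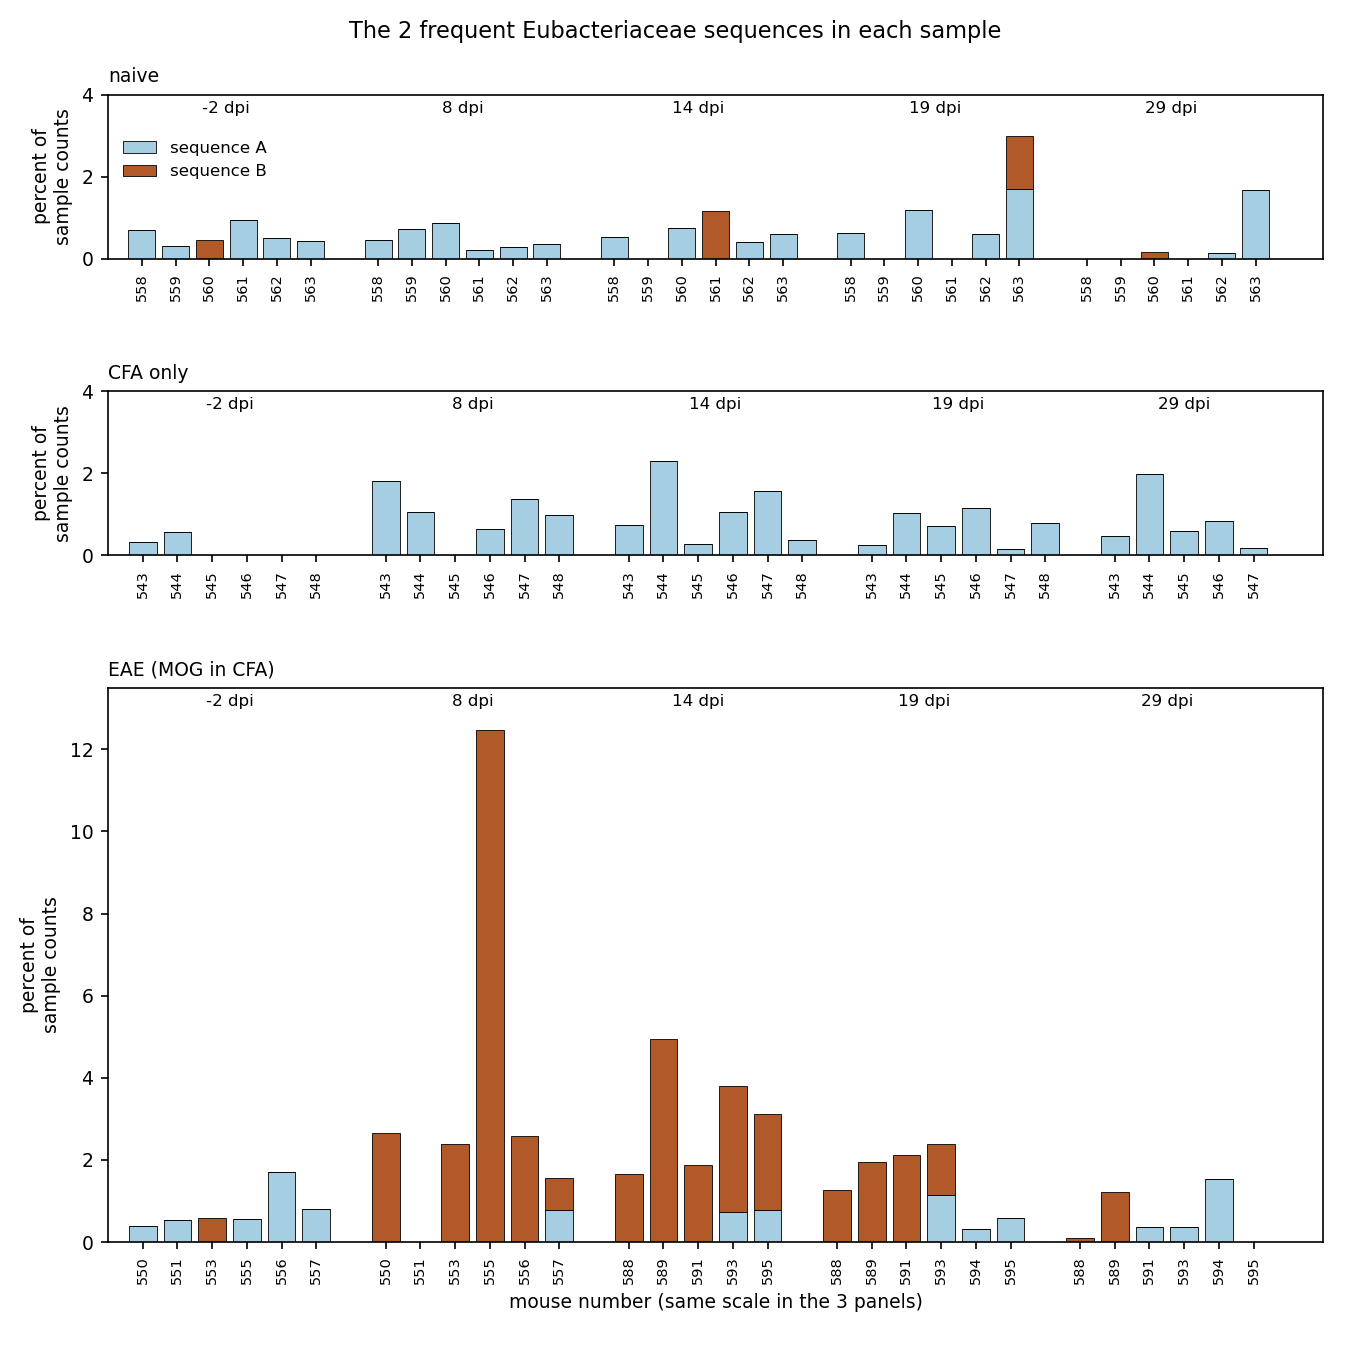
Percent of counts (vertical axis, same scale in all panels) of sequences A and B, stacked, in each sample by mouse number and day. Sequence B is absent from the CFA samples and makes up most of the bars of EAE mice at 8 and 14 dpi, where EAE mouse 555 reached 12.5%.

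At -2 dpi, EAE mouse 553 alone of 6 had B, at 0.579%, and the other 5 had A. At 8 dpi B was in 5 of 6 EAE mice, with 2.67%, 2.40%, 12.5%, 2.59% and 0.783% in mice 550, 553, 555, 556 and 557, and only mouse 557 also had A, at 0.774%. At 14 dpi all 5 EAE mice had B, with 1.67%, 4.95%, 1.89%, 3.05% and 2.33% in mice 588, 589, 591, 593 and 595. Mice 593 and 595 also had A, at 0.743% and 0.790%. The B values of EAE mice at 14 dpi were all above those of the naïve and CFA mice of that day.

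At 19 dpi B was in 4 of 6 EAE mice, with 1.27%, 1.96%, 2.12% and 1.24% in mice 588, 589, 591 and 593, while mice 594 and 595 had only A. At 29 dpi B was left in mice 588 and 589, at 0.0930% and 1.22%. Mice 591, 593 and 594 had A at 0.355%, 0.364% and 1.54%, and mouse 595 had neither. By mouse, 588 and 589 had B alone on all 3 days, 591 went from B to A, 593 from both to A, and 595 from both to A to neither. Mouse 594, with no sample at 14 dpi, had no B on either day. No test of this order within mice was run.

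In naïve mice, B was found in mouse 560 at -2 dpi (0.463%) and 29 dpi (0.170%), mouse 561 at 14 dpi (1.17%) and mouse 563 at 19 dpi (1.30%, together with 1.69% of A). In each case it was the only naïve mouse of its day with B. These mice had A at other days, so both sequences occurred in untreated animals.

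**Figure D4:**
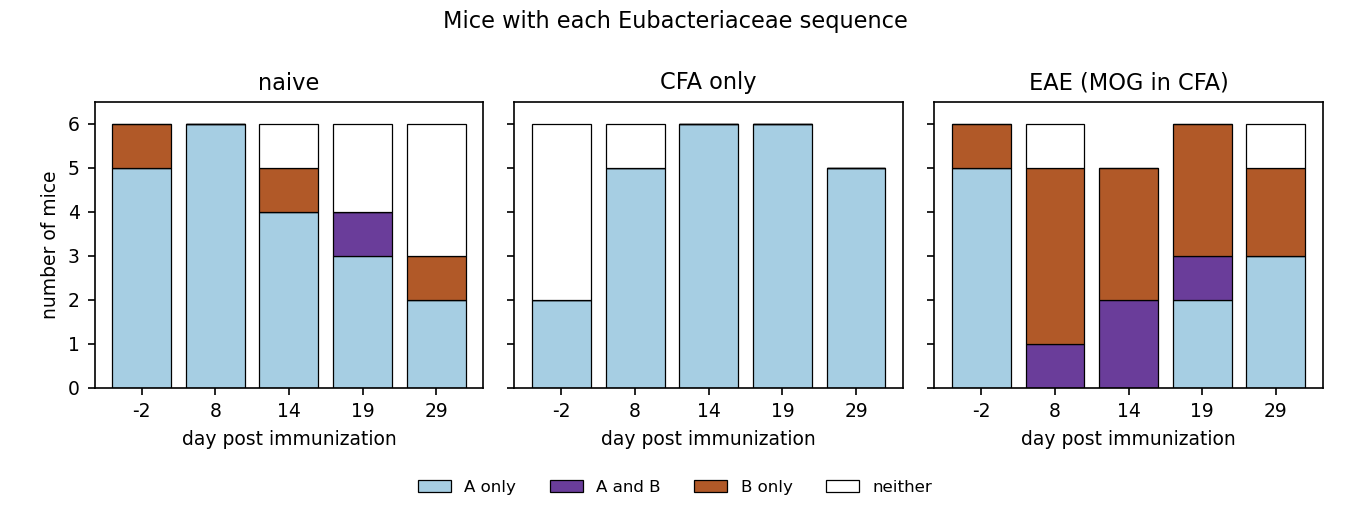
Number of mice (vertical axis) with sequence A only, both sequences, B only or neither, by day post immunization for each treatment. A only is the most frequent state in naïve and CFA mice with counts, and B, alone or with A, is found in 5 of 6, 5 of 5 and 4 of 6 EAE mice at 8, 14 and 19 dpi.

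In EAE mice sequence B averaged 3.48% ± 4.53 at 8 dpi (SD, n = 6) and 2.78% ± 1.32 on day 14 (SD, n = 5). Without mouse 555 the mean at 8 dpi was 1.69% ± 1.22 (SD, n = 5), so which day had the higher mean turned on that sample. It averaged 1.10% ± 0.922 on day 19 and 0.218% ± 0.491 on day 29 (SD, n = 6 each). Among 203 sequences of all families, edgeR's test called B higher in EAE than in CFA mice at 8, 14 and 19 dpi (edgeR adjusted p = 0.0238, 0.0272 and 0.0333) and higher in EAE than in naïve mice at 8 dpi (edgeR adjusted p = 0.0490). It also called B lower in CFA than in naïve mice at 14 and 19 dpi (edgeR adjusted p = 0.0433 and 0.0435), where 1 of 6 naïve mice and no CFA mouse had it. No fold change is given for these comparisons, since a group in each was at 0. At 14 dpi EAE and naïve mice differed in B by 3.55 ± 3.02 log2 units (SE, edgeR adjusted p = 0.588). Over all sequences and the 15 comparisons 7.82% of tests passed, and 6 of 30 did for A and B, all of them for B.

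These calls lay close to the threshold. Of the settings with a sample left out, the EAE to CFA call held in 8 of 12 at 8 dpi, 8 of 11 at 14 dpi and 7 of 12 at 19 dpi, with a highest edgeR adjusted p of 0.0538, 0.0523 and 0.0643. The EAE to naïve call at 8 dpi held in 2 of 12, with edgeR adjusted p from 0.0427 to 0.106. Both calls between CFA and naïve mice rested on a single naïve mouse, 561 at 14 dpi and 563 at 19 dpi, without which neither group had B. With exact permutation tests on percents, where 0.296% of tests over sequences passed, 1 of the 30 did. This was the excess of B in EAE over CFA mice on day 14, 2.78 points with adjusted p = 0.0488. The excess over naïve mice on that day, 2.58 points, missed the threshold with adjusted p = 0.0549. Both had an exact permutation p of 0.00216, the lowest possible here. Over 203 sequences this p passes only where enough sequences of a comparison reach it. Which of these comparisons passed thus turned on the other sequences, and the pooled share of 0.296% is no background for it.

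Presence of B was compared in the same way, after its values had been seen. B was in 5 of 5 EAE mice and 0 of 6 CFA mice at 14 dpi (two-sided Fisher's exact test, p = 0.00216, adjusted p = 0.0325). This adjustment covered the 15 comparisons of B alone. None was made over the family, A and B together, so no conclusion is drawn from this pass. At 8 dpi it was in 5 of 6 EAE mice and in 0 of 6 of either other group (Fisher's exact test, p = 0.0152, adjusted p = 0.0568 for both). Counting each mouse once over 14, 19 and 29 dpi, 5 of 6 EAE, 3 of 6 naïve and 0 of 6 CFA mice had B at least once. The EAE mouse without B, 594, had no sample at 14 dpi, when all sampled EAE mice had it. The comparison of EAE with CFA mice then had p = 0.0152 and an adjusted p of 0.136 over 9 comparisons (Fisher's exact test). As a mean per mouse over these days, B was higher in EAE mice by 1.21 points than in CFA and by 1.06 points than in naïve mice (exact permutation tests, adjusted p = 0.114 and 0.160 over 203 sequences), where 5.75% of tests over sequences passed.

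Sequence A passed 0 of 15 comparisons between treatments in edgeR, with 0 unadjusted p under 0.05. On the 5 days in order its mean in EAE mice was 0.668%, 0.129%, 0.307%, 0.341% and 0.376%, and it was in 5, 1, 2, 3 and 3 of these mice. At 8 dpi, 1 of 6 EAE, 6 of 6 naïve and 5 of 6 CFA mice had A (Fisher's exact test of EAE against naïve mice, p = 0.0152, adjusted p = 0.227). In edgeR, the log2 fold changes of A at 8 dpi were -1.90 ± 2.64 in EAE over naïve and -2.88 ± 2.74 in EAE over CFA mice (SE, edgeR adjusted p = 1.00 and 0.663). Without EAE mouse 557, the only EAE mouse with A on that day, the comparison with CFA mice passed (edgeR adjusted p = 0.0405). Leaving out that mouse put the EAE group at 0 by construction, so no conclusion is drawn from this pass.

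Kept as deposited, with primer variants apart, 23 of the family's 35 ASVs occurred in at least 3 samples and entered the fit with 648 ASVs. None of them passed in any of the 15 comparisons, which is 0 of 345 tests, where 3.58% of tests over all ASVs passed (lowest edgeR adjusted p = 0.0632 for the family). An unadjusted p under 0.05 was found in 142 of the 345 tests, or 41.2%, against 41.5% over all ASVs, so this share was near the background.

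Among related Clostridia, Ruminococcaceae, a family of fibre-degrading anaerobes that holds the nearest sequences, was higher in EAE than in naïve mice at 14 and 29 dpi and higher than in CFA mice at 14 dpi. At 14 dpi it averaged 27.1% of counts in EAE, 5.12% in naïve and 10.8% in CFA mice, and its log2 fold changes were 1.97 ± 0.492 and 1.32 ± 0.485 (SE, edgeR adjusted p = 0.00160 and 0.0259). Lachnospiraceae, which include many butyrate producers, passed in 1 of 15 comparisons between treatments, lower in EAE than in CFA mice at 14 dpi by -1.71 ± 0.684 log2 units (SE, edgeR adjusted p = 0.0330). Oscillospiraceae passed in 0 of 15, with no unadjusted p under 0.05 in edgeR. Lactobacillaceae were lower in EAE mice in 8 of 15 comparisons, those with naïve and CFA mice at 8, 14, 19 and 29 dpi.

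Over all 88 samples, the families whose percents ranked most like that of Eubacteriaceae were Ruminococcaceae (Spearman's rho = 0.560), Clostridiaceae (0.282) and Anaeroplasmataceae (0.254). The genera were Ruminococcus (0.560), Ruminococcaceae_UCG-014 (0.538) and Candidatus_Soleaferrea/Massilioclostridium (0.350). Total counts had a rho of -0.121 with the family's percent. These values describe samples that share groups, mice and a common total, and carry no test.

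Other taxa with Eubacterium in their name were placed in other families. Absiella/Eubacterium D (Absiella dolichum, 23 ASVs, Erysipelotrichaceae) had group means from 0% to 0.421% and was present in at most 5 mice of a group. Coprococcus/Eubacterium_F (Eubacterium F xylanophilum, 32 ASVs, Lachnospiraceae) had group means from 0.320% to 2.27%. In EAE mice the latter averaged 1.31%, 1.27%, 0.874%, 0.945% and 0.367% at the 5 days, and its highest EAE mean was at -2 dpi. No test of these taxa was run.

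Within groups of 6 mice, the family's percent was compared with that of Lactobacillaceae in 13 groups and with clinical score and body weight in EAE mice at 19 and 29 dpi, 17 relations in all. None passed after adjustment (exact permutation tests, lowest adjusted p = 0.708 for Pearson's r and 0.567 for Spearman's rho). The lowest p of a rank relation was in EAE mice at -2 dpi, where rho with Lactobacillaceae was -0.886 and r was -0.578 (exact permutation p = 0.0333 and 0.244). Without the 2 samples farthest from the median of Lactobacillaceae, r was -0.738 there. With clinical score, r was -0.452 and rho -0.265 at 19 dpi, and r was -0.0247 and rho 0.203 on day 29 (exact permutation p from 0.350 to 0.972). Without the 2 samples farthest from the median score, r was -0.922 at 19 dpi and 0.927 on day 29. At 19 dpi EAE mice 593 and 594, both with a score of 4, were equally far from the median. Only mouse 593 of these was left out, so the value for that day depends on an arbitrary choice and no conclusion is drawn from it. On day 29 the size and sign of r rested on the samples left out. With body weight, r was -0.512 and rho -0.543 at 19 dpi, and r was -0.283 and rho -0.0857 on day 29 (exact permutation p from 0.297 to 0.919). Without the 2 samples farthest from the median weight, r was -0.759 at 19 dpi and 0.765 on day 29. At 19 dpi EAE mice 589 and 591 were equally far from the median weight, and only mouse 589 of these was left out.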

How the data were processed

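Fecal DNA of naïve, CFA and EAE mice was amplified for V3 and V4 of 16S rRNA. ASVs were derived by the authors in DADA2 after truncation and error filtering of reads, with pairs merged and chimeras removed, and were named from several reference databases by hand. The deposited values are counts of reads per ASV and sample, neither rarefied nor scaled, and 2274 of the 2295 ASVs still hold both primers. The table held 89 mouse samples, of which 88 were used, since 1 of the CFA group (29 dpi) had no counts. The 2 water controls were not analysed here.

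Counts were summed per family and, once primers were removed, per distinct sequence (501 in all). A family or sequence had to occur in 3 samples to be tested, which left 23 of 26 families and 203 sequences. For counts, edgeR 4.0.16 (R 4.3.3) was used with its quasi-likelihood test. Each standard error given with an edgeR fold change was derived from that test. It is the absolute log2 fold change divided by the square root of the test's F statistic. The fit had a term for each of the 15 groups, and scaling factors were computed by TMMwsp on counts per genus. Percents were tested with exact permutation tests in Python 3.11.15, presence with Fisher's exact test. The Benjamini-Hochberg adjustment covered all features of each comparison, and 0.05 was the threshold. For relations within groups it covered all relations. Presence at each day was adjusted over the 15 comparisons of the family, of A or of B alone. Presence per mouse was adjusted over the 9 comparisons of the family, A and B together. The fit and the permutation tests were tested on simulated data. Alternatives were DESeq2 1.42.0, total counts only, no filter, a pseudocount of 0.01 on the log2 scale of percents, counts outside Lactobacillaceae, samples or mice left out, and the mouse as a replicate block. Permutation and presence tests of the sequences, left-out samples for the sequences and for changes since -2 dpi, and fits without the 3 EAE samples of fewest ASVs, or for the sequences without 2 of them known from earlier work on these data, were chosen after seeing the data.

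The text names the family's taxa and sequences, taxa named Eubacterium, 4 related or linked families and the 3 families and 3 genera most like Eubacteriaceae. Members and lists were chosen with earlier results of these data known. Mouse numbers of the labels pair naïve and CFA samples, and EAE samples at -2 and 8 dpi. Deviations of 1 mouse's samples from their group means correlated weakly over families, with a mean r of -0.0187 in naïve, 0.000168 in CFA and 0.0518 in EAE mice. P-values take mice that shared cages as independent. The main edgeR fit had no term for the mouse, so samples of a mouse at different days also entered as independent.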

Additional observations from a re-analysis of the deposited data

Results flagged for a closer look

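A sample stood far from the others of its group in 13 of 39 sets of values tested by Dixon's ratio at the 95% level. That level flags about 1 in 20 sets of normally distributed values, but many sets here held zeros. A set in which a single mouse had counts has a ratio of 1 and is always flagged. The share flagged can thus not be set against 1 in 20. For the family these were naïve mouse 563 at 29 dpi (1.66%, next highest 0.170%), EAE mouse 556 at -2 dpi (1.71%, next highest 0.798%) and EAE mouse 555 at 8 dpi (12.5%, next highest 2.67%). For sequence A they were naïve mouse 563 at 29 dpi (1.66%), EAE mouse 557 at 8 dpi (0.774%) and EAE mouse 594 at 29 dpi (1.54%). For sequence B they were EAE mouse 555 at 8 dpi (12.5%) and EAE mouse 589 at 29 dpi (1.22%). The only mice of their groups with sequence B were naïve mouse 560 at -2 and 29 dpi (0.463% and 0.170%), naïve mouse 561 at 14 dpi (1.17%), naïve mouse 563 at 19 dpi (1.30%) and EAE mouse 553 at -2 dpi (0.579%).

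The sample of EAE mouse 555 at 8 dpi had 9202 counts and 4 ASVs, 1 of them of sequence B with 1147 counts. Without it the EAE mean at 8 dpi was 1.84% for the family and 1.69% for sequence B.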

How the results depend on the processing

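The higher percent of Eubacteriaceae in EAE than in naïve mice at 14 dpi passed on the log2 scale, outside Lactobacillaceae and with each sample left out. The number of percent comparisons between treatments that passed fell from 2 to 1 outside Lactobacillaceae. Against -2 dpi it went from 1 to 2 with no replicate block and to 0 with the subject number as a replicate block. At 14 dpi the latter had 5 pairs and could not pass. In edgeR, comparisons with -2 dpi that passed stayed at 0 with a replicate block by either number, as did the change between treatments. Presence passed in 1 comparison in place of 0 when sequence B stood for the family, with adjustment over the comparisons of B alone. The 6 calls of sequences A and B became 10 in DESeq2, 2 with no filter on rare sequences, 0 with ASVs as deposited and 1 by exact permutation of percents. They were 5 without EAE mouse 555 at 8 dpi and EAE mouse 595 at 19 dpi, and 6 when EAE mouse 551 at 8 dpi was left out as well. In each of the 10 DESeq2 calls, sequence B was compared with a group at 0. These included both comparisons of CFA mice at -2 dpi, before any treatment. On that day 1 of 6 EAE mice, 1 of 6 naïve mice and no CFA mouse had B. The causes were not tested.

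Small differences changed sign, none of them past the threshold. For family counts, the log2 fold change of EAE over naïve mice at -2 dpi was 0.41 in DESeq2, 0.45 on total counts and 0.21 with only the groups compared, and at 19 dpi it was 0.23 in DESeq2 and 0.67 on total counts, where edgeR gave -0.02 and -0.22. CFA over naïve mice at 19 dpi was 0.0267 in DESeq2 for the family and 0.37 for sequence A. In naïve mice, the change from -2 dpi was 0.0768 or 0.0772 at 8 dpi and -0.43 at 19 dpi with the label number or the subject as a replicate block, and 0.0459 at 14 dpi on total counts. The change of EAE against naïve mice at 19 dpi was 0.22 on total counts and 1.17 with the subject as a replicate block. As log2 percents, CFA minus naïve mice at 19 dpi was 1.29, and naïve mice differed from -2 dpi by -0.70 at 14 dpi and -1.23 at 19 dpi.

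With a sample left out, the log2 fold change of family counts in EAE over naïve mice ranged from -0.64 to 0.22 at -2 dpi, -0.49 to 0.57 at 19 dpi and -0.23 to 2.52 at 29 dpi. It ranged from -1.78 to 0.0840 for EAE over CFA mice at 29 dpi and from -0.81 to 0.25 for CFA over naïve mice at 19 dpi. Against -2 dpi it ranged from -0.51 to 0.0283 in naïve mice at 14 dpi, -0.21 to 0.85 at 19 dpi, and -1.50 to 0.13 in EAE mice at 29 dpi. The change of EAE against naïve mice ranged from -0.46 to 0.60 at 19 dpi and -0.20 to 2.55 at 29 dpi. Percent differences ranged from -0.411 to 0.0719 points for EAE minus CFA at 29 dpi and -0.403 to 0.196 for CFA minus naïve at 19 dpi. Against -2 dpi they ranged in naïve mice from -0.177 to 0.0566 at 8 dpi, -0.0343 to 0.0835 at 14 dpi and -0.101 to 0.602 at 19 dpi, and in EAE mice from -0.358 to 0.0190 at 29 dpi. For sequence A in EAE over naïve mice the log2 fold change ranged from -0.75 to 0.40 at -2 dpi, -1.30 to 0.0239 at 14 dpi and -1.21 to 4.09 at 29 dpi, and in CFA over naïve mice from -0.44 to 0.25 at 19 dpi. For sequence B in EAE over naïve mice it ranged from -9.24 to 8.82 at -2 dpi and -1.55 to 9.41 at 29 dpi, where a sample left out could leave a group at 0, so these are not estimates of a fold.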
